A study of Mus musculus with 12 samples.

Results

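The 8 genes described here are the 4 myogenic regulatory factors Myod1, Myf5, Myf6 and Myog, the paired-box genes Pax3 and Pax7 and the mesenchyme homeobox genes Meox1 and Meox2. They were taken by name from a count table of 48709 mouse gene intervals, and each name matched 1 interval. RNA came from cardiogenic regions, the embryonic tissue that builds the heart, dissected from mouse embryos of 4 ages, given in days of embryonic development as E8, E8.5, E9.5 or E14. There were 3 total RNA libraries per stage and 12 in all. The labels used here name no genotype, strain or treatment, and do not say whether libraries of a stage came from different embryos. The p-values therefore measure only the spread between these libraries, which may be technical.

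In the trunk, skeletal muscle arises from the somites, the paired blocks of paraxial mesoderm beside the neural tube, and not from heart-forming mesoderm. Pax3 and Pax7 mark muscle progenitors of the dermomyotome and are also active in dorsal neural tube and neural crest. Myf5 and Myod1 are basic helix-loop-helix factors that commit cells to the muscle lineage, and Myog and Myf6 act in the differentiation that follows. Meox1 and Meox2 are homeobox factors of the somites, and Meox2 is also known from endothelial cells. Heart muscle forms without the myogenic regulatory factors, so their RNA in a heart dissection bears on which tissues were collected.

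Totals per library were 101231014 to 122785175 counts in E8 libraries, 101202593 to 111404849 in E8.5 libraries, 73056001 to 90620692 in E9.5 libraries and 56574386 to 97187372 in E14 libraries. Levels are given as CPM, counts per 1000000 of the scaled library size. The heart muscle list, 14 genes such as Tnnt2 and Nkx2-5, summed to 12714 to 14323 CPM in E8 libraries, 12672 to 14103 in E8.5 libraries, 16032 to 18034 in E9.5 libraries and 22875 to 22992 in E14 libraries. All 14 of its genes averaged at least 1 CPM at E8 and at E14. E8.5 replicate 3 stood apart: its 8 visceral endoderm genes summed to 1698 CPM, beside 157 and 57.8 in E8.5 replicates 1 and 2. Without it, 8865 genes were called at E8.5 against E8, where 341 were called with it.

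The myogenic regulatory factors were at or near the limit of detection from E8 to E9.5. At E14 Myog, the factor of terminal muscle differentiation, had 60 to 72 counts per library, and Myod1 had up to 9. Myf5 and Myf6 stayed at 12 counts or fewer in every library. A total of 3 counts, used as the floor of detection, amounts to 0.0239 to 0.0570 CPM over the 12 libraries, and it covers counting error only.

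Myog (GRCm38, chromosome 1, 134289989 to 134292548, plus strand) had 7, 0 and 2 counts in the E8 libraries, 1, 2 and 4 at E8.5, 5, 5 and 2 at E9.5, and 60, 62 and 72 at E14. Its lowest E14 library stood above every earlier library by count and by level. The mean level was 0.0276 ± 0.0349 CPM at E8, 0.0211 ± 0.0140 CPM at E8.5, 0.0484 ± 0.0226 CPM at E9.5 and 0.916 ± 0.235 CPM at E14 (SD, n = 3 libraries each). Myog rose by 4.21 ± 0.65 (SE) on the log2 scale at E14 against E9.5, an 18.6-fold difference (adjusted p = 0.000204, edgeR's quasi-likelihood test with Benjamini-Hochberg adjustment). Against E8 the E14 value was 5.04 ± 0.68 (edgeR adjusted p = 4.55e-05). The earlier differences of Myog did not pass, at -0.32 ± 0.90 for E8.5 over E8 and 1.15 ± 0.86 for E9.5 over E8.5 (edgeR adjusted p = 0.843 and 0.315).

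Myod1 (GRCm38, chromosome 7, 46376474 to 46379099, plus strand) had 0, 1 and 2 counts at E8, 0, 0 and 2 at E8.5, 0, 2 and 0 at E9.5, and 6, 9 and 8 at E14. All 3 E14 libraries lay above all earlier ones, at 0.0972 to 0.114 CPM beside at most 0.0227. Its counts were below the filter on low values, so it has no test over all genes. The level at E14 was 13.1 times that at E9.5 (95% interval 3.23 to 114) and 11.97 times that at E8 (3.62 to 62.3), from 23 counts against 2 and 3. These intervals are exact binomial intervals of summed counts and cover counting error only.

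Myf5 and Myf6 are neighbours on chromosome 10, with 6725 bases between their intervals (GRCm38, 107482908 to 107486134 and 107492860 to 107494729, both minus strand). Myf5, the first myogenic factor of the somite, had 0 counts in each E8 library, 0, 1 and 0 at E8.5, 0, 6 and 12 at E9.5, and 5, 1 and 3 at E14. At E9.5 its counts were in replicates 2 and 3, with none in replicate 1. The summed Myf5 count was 18 at E9.5 against 1 at E8.5, a ratio of 24.0 with a 95% counting interval of 3.79 to 1001. Fitted over all genes with no filter, which takes in the spread of the libraries, this Myf5 difference did not pass (edgeR adjusted p = 0.0781). At E14 the sum was 9 counts against 0 at E8, at least 4.68-fold higher taking 3 counts per group as the floor. Between E14 and E9.5 the ratio was 0.568, and its interval of 0.225 to 1.33 spans no difference. Myf6, also called Mrf4, had 4 counts in all at E8, 3 counts each at E8.5 and E9.5, and 7 counts at E14, with no library above 4, and no difference was detectable at this depth.

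**Figure D1:**
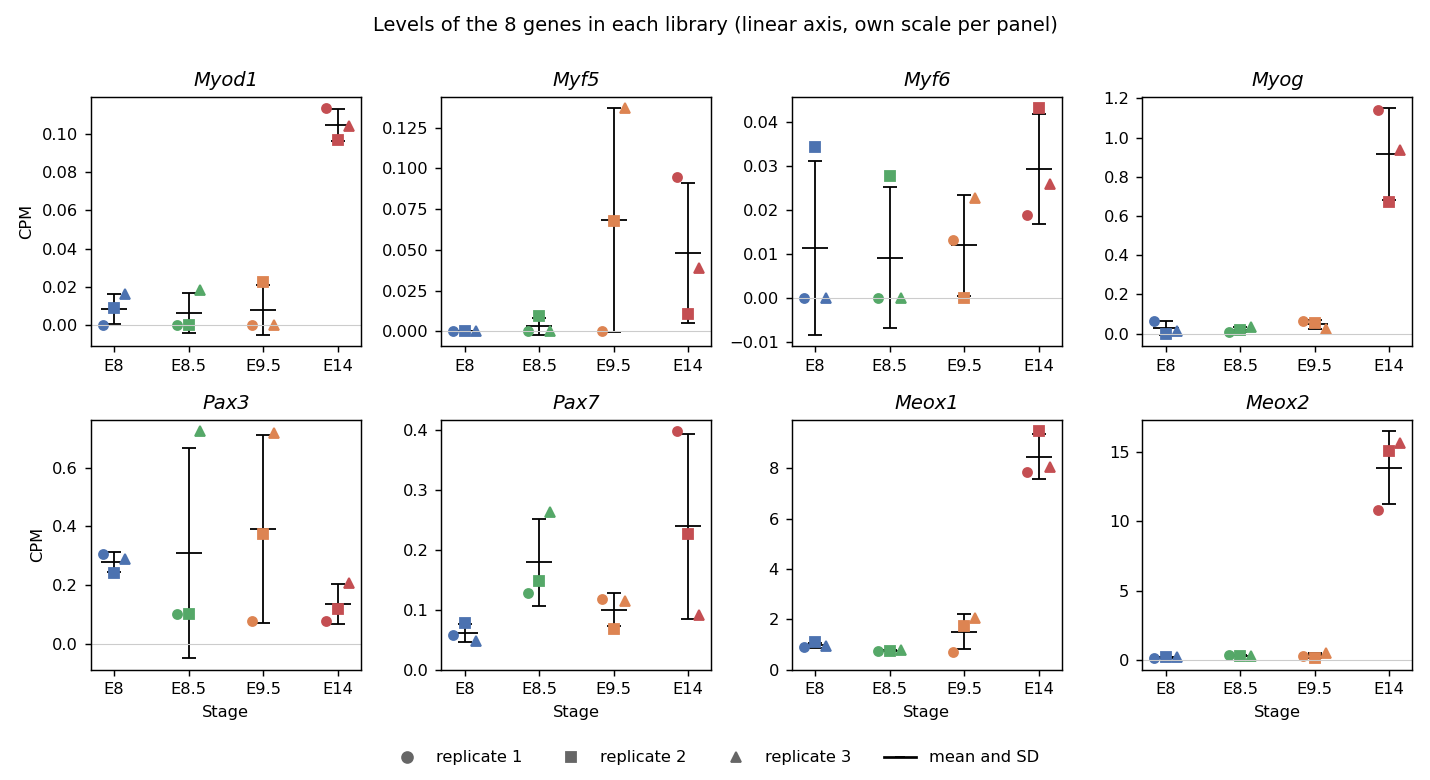
Level in CPM on the y axis (linear, own scale per panel, starting at 0 or below it where an SD bar crosses 0) against stage on the x axis for the 8 genes. Points are libraries with a marker per replicate, and bars are mean and SD of 3 libraries. Myog, Myod1, Meox1 and Meox2 are highest in the 3 E14 libraries, while Pax3 is split within E8.5 and E9.5.

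Pax3 and Pax7 were low at all 4 stages. No stage difference of Pax3 passed the test, with libraries of E8.5 and of E9.5 far apart, and Pax7 was higher at E14 than at E8. Both intervals are long, with 95868 and 96467 bases, and the counting tool is not given in the sources used here, so reads from introns may be part of the counts.

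Pax3 (GRCm38, chromosome 1, 78101267 to 78197134, minus strand) had 32, 28 and 36 counts at E8, 12, 11 and 80 at E8.5, 6, 33 and 63 at E9.5, and 4, 11 and 16 at E14. The E8 libraries were alike, with 0.240 to 0.306 CPM. Replicate 3 of E8.5 reached 0.723 CPM, where replicates 1 and 2 both had 0.102, and replicate 1 of E9.5 was at 0.0787 CPM, where replicates 2 and 3 had 0.374 and 0.719. The E14 libraries lay below those of E8 and overlapped those of the other two stages. On the log2 scale Pax3 was at 0.15 ± 0.79 in E8.5 over E8, 0.35 ± 0.79 for E9.5 against E8.5, -1.51 ± 0.87 for E14 against E9.5 and -1.01 ± 0.87 for E14 against E8, with edgeR adjusted p of 0.170 to 0.918. Without E8.5 replicate 3 the value at E9.5 against E8.5 was 1.96 ± 0.69 (edgeR adjusted p = 0.0375), that at E14 against E9.5 was -1.54 ± 0.61 (0.0491) and that at E8.5 against E8 was -1.47 ± 0.68 (0.129). Both calls arose only on leaving out this library, and the directions at E8.5 against E8 and at E9.5 against E8.5 also turned under other alternatives.

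Pax7 (GRCm38, chromosome 4, 139737062 to 139833528, minus strand), a gene of muscle stem cells, had 6, 9 and 6 counts at E8, 15, 16 and 29 at E8.5, 9, 6 and 10 at E9.5, and 21, 21 and 7 at E14. The E14 libraries lay at 0.0912 to 0.399 CPM, all above the 0.0479 to 0.0773 CPM of the E8 libraries but overlapping those of E9.5 and E8.5. Pax7 rose by 1.92 ± 0.53 on the log2 scale at E14 against E8 (edgeR adjusted p = 0.00797). At E8.5 against E8 it was at 1.54 ± 0.52 (edgeR adjusted p = 0.0920), at E9.5 against E8.5 -0.84 ± 0.51 (0.221), and at E14 against E9.5 1.21 ± 0.52 (0.0722). The last value passed without E14 replicate 3, at 1.59 ± 0.47 (edgeR adjusted p = 0.0191).

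Both Meox genes rose at E14, where they were the 2 members that averaged at least 1 CPM. Meox2 averaged 13.8 ± 2.64 CPM at E14, against 0.329 ± 0.167 CPM at E9.5 and 0.184 ± 0.0635 CPM at E8 (SD, n = 3 libraries each). Meox1 averaged 8.45 ± 0.889 CPM at E14, against 1.51 ± 0.704 CPM at E9.5 and 0.968 ± 0.108 CPM at E8.

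Meox2 (GRCm38, chromosome 12, 37108540 to 37179534, plus strand) had 12, 23 and 30 counts at E8, 40, 35 and 30 at E8.5, 24, 15 and 44 at E9.5, and 570, 1396 and 1201 at E14. The E14 libraries held 10.8, 15.1 and 15.6 CPM, against 0.170 to 0.502 CPM at E9.5 and 0.115 to 0.239 CPM at E8. Meox2 rose 41.9-fold at E14 against E9.5 (5.39 ± 0.34 on the log2 scale, edgeR adjusted p = 2.05e-07) and 74.1-fold against E8 (6.21 ± 0.35, adjusted p = 4.61e-08). Its earlier values, 0.74 ± 0.35 for E8.5 over E8 and 0.08 ± 0.34 for E9.5 over E8.5, did not pass (edgeR adjusted p = 0.193 and 0.877).

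Meox1 (GRCm38, chromosome 11, 101877510 to 101894374, minus strand) had 93, 127 and 116 counts at E8, 86, 82 and 87 at E8.5, 55, 155 and 181 at E9.5, and 413, 877 and 618 at E14. At E9.5 replicate 1, at 0.722 CPM, was below all E8.5 libraries (0.731 to 0.787), and replicates 2 and 3 were above them, at 1.76 and 2.07 CPM. Meox1 rose by 1.002 ± 0.288 on the log2 scale at E9.5 against E8.5 (edgeR adjusted p = 0.0181). The call was lost when E8.5 replicate 2 was left out (edgeR adjusted p = 0.0512), likewise E9.5 replicate 2 (0.0692) or E9.5 replicate 3 (0.0905), and when only the 6 libraries of E8.5 and E9.5 were fitted (0.0793). At E14 Meox1 rose 5.56-fold against E9.5 (2.48 ± 0.29, edgeR adjusted p = 2.17e-05) and 8.73-fold against E8 (3.13 ± 0.29, adjusted p = 2.39e-06). The antisense gene Gm11551 overlaps the interval of Meox1, with 6 to 98 counts per library, or 4.53% to 17.4% of the Meox1 count, and reads of the overlap cannot be told apart. The other 7 members overlap no other interval of the table.

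Of the 8 members 5 passed the filter on low counts (Myog, Pax3, Pax7, Meox1 and Meox2). At E8.5 against E8 edgeR called 0 of these 5, where 0.891% of all genes tested were called higher and 0.291% lower. There 1 of the 5, Pax7, had an unadjusted p under 0.05, and DESeq2 called 0. At E9.5 against E8.5 Meox1 was called higher and 0 were lower, with 18.4% of all genes called higher and 18.5% lower. At E14 against E9.5 Myog, Meox1 and Meox2 were called higher and 0 lower, beside 25.4% and 24.6% of all genes. At E14 against E8 Myog, Pax7, Meox1 and Meox2 were called higher and 0 lower, beside 31.5% and 29.2%. In the test over all 4 stages together the same 4 were called, as were 72.3% of all genes. DESeq2 called as many members in each direction in the 4 comparisons, and 1, 4 and 4 of the 5 had an unadjusted p under 0.05 in the last 3. The medians of the 5 were 0.15, 0.35, 2.48 and 3.13 on the log2 scale, and those of all genes 0.02, -0.03, 0.01 and 0.04. Without E8.5 replicate 3 the first 2 medians of the members were -0.41 and 1.06, 2 members were called higher at E9.5 against E8.5, and 1 was called lower at E14 against E9.5. The comparisons share stages: E14 enters both of the last pair, and E8.5 and E9.5 each enter 2 neighbouring ones.

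**Figure D2:**
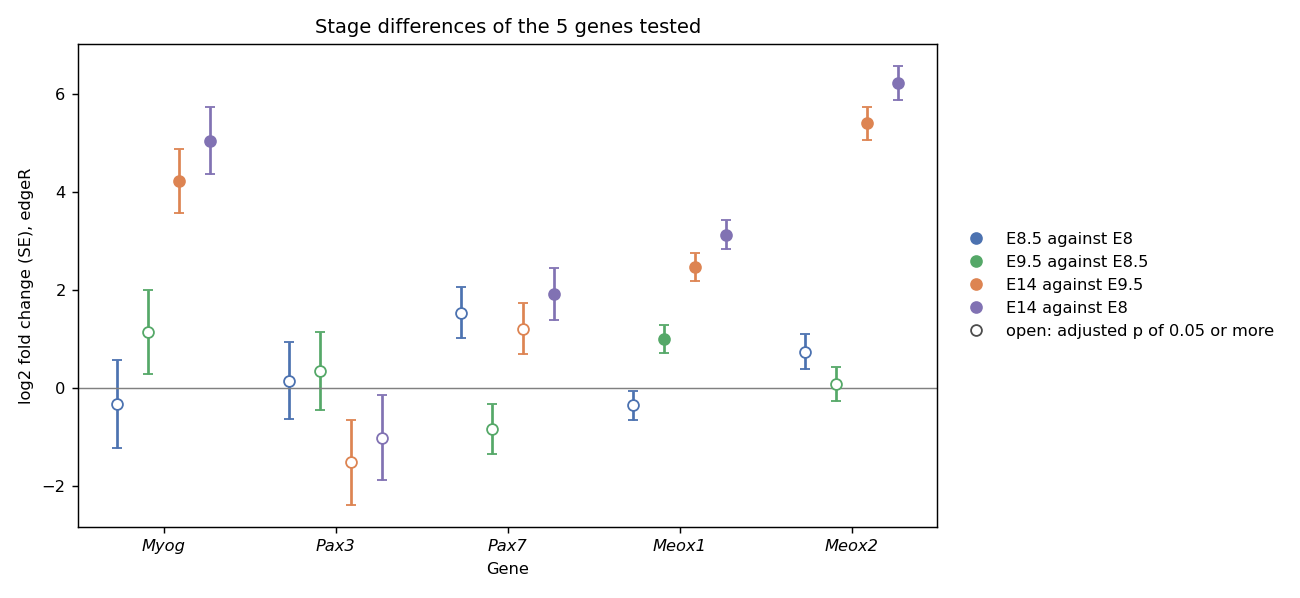
Log2 fold change (y axis, edgeR, later over earlier stage) of the 5 genes tested (x axis) for the 4 comparisons, with bars of 1 SE from 12 libraries and open points for an adjusted p of 0.05 or more. The E14 values of Myog, Meox1 and Meox2 lie from 2.48 to 6.21, and all 4 points of Pax3 are open.

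Promoter windows from RefSeq (GRCm38.p6) were at hand for 4 of the 8 members: Myf5, Myog, Pax7 and Meox2. The 250 bases before the RefSeq start are shown for Myog and Meox2, the called members with a window that rose most at E14. For Meox2 this start is that of the interval given above. For Myog it lies inside the interval, which begins at 134289989, and the Pax7 window lies wholly inside the Pax7 interval. Capitals mark matches on either strand to the E-box CANNTG, the TATA box TATAAA and the MEF2 motif, written as the pattern YTAWWWWTAR. Here N is any base, Y is C or T, W is A or T, and R is A or G. Myogenic factors, the basal machinery and MEF2 proteins, in this order, can bind such motifs.
Myog, chr1:134289754-134290003, plus strand: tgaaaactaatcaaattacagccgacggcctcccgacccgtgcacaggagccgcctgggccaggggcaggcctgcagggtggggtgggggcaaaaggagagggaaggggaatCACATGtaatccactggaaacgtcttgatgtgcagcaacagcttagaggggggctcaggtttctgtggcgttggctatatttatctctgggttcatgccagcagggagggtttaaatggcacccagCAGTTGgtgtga
Meox2, chr12:37108290-37108539, plus strand: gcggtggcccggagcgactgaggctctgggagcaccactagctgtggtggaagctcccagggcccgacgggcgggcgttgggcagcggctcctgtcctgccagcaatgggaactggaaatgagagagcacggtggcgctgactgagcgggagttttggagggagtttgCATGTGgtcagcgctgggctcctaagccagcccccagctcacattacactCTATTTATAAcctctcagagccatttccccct
The Myog window holds 2 E-boxes, which begin 138 and 12 bases before the RefSeq start. The nearer of them lies inside the Myog interval. The lower-case stretch ctatatttat of this window differs from the MEF2 pattern in its last base only. The Meox2 window holds 1 E-box, beginning 82 bases before the start, and a MEF2 motif beginning 32 bases before it that overlaps a TATA box read on the other strand. The windows of Myf5 and Pax7 hold none of the 3. Of all 32851 mouse windows of this length 66.2% hold an E-box, 12.4% a TATA box and 2.92% a MEF2 motif. A match is a description of these letters and shows no binding.

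Levels of different genes were compared per kb. Per kb of gene interval the E14 order was Meox1 (0.501 CPM per kb), Myog (0.358), Meox2 (0.195) and Myod1 (0.0400), followed by Myf6 (0.0157), Myf5 (0.0150), Pax7 (0.00248) and Pax3 (0.00140). The library ranges of the first 4 did not overlap, at 0.465 to 0.562 for Meox1, 0.262 to 0.445 for Myog, 0.152 to 0.220 for Meox2 and 0.0370 to 0.0434 CPM per kb for Myod1. Those of Myf6 and Myf5 overlapped, as did those of Myf5 and Pax7 and of Pax7 and Pax3. Per kb of exon (GENCODE M21) Meox2 came first at E14, with 5.87 CPM per kb, Meox1 followed with 3.80 and Myog with 0.612. The order of the Meox genes thus turned with the length used. At E14, 49.99% of the genes tested had a lower level than Meox1 per kb of interval and 43.6% a lower level than Myog. At E8 the same shares were 23.7% for Meox1 and 10.7% for Myog.

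Genes with the most similar pattern were found by the root mean square difference of centred log2 CPM over the 12 libraries. For Meox2 they included Snap91 (0.457) and Lrrc4c (0.467), where the median gene differed by 2.49. For Meox1 they were Mgst1 (0.195), Slitrk4 (0.258) and Pink1 (0.265), with a median of 1.41. For Myog they were Pcdhb16 (0.501), Klhl40 (0.538) and Hhatl (0.559), with a median of 1.95. Pax7 (Fam110c at 0.451, Wnk2 at 0.469 and Gpr155 at 0.493, median 0.817) and Pax3 (among others RP24-158D10.1 at 0.587 and Vmn2r59 at 0.651, median 1.05) had less distinct neighbours. The search covered 14501 or 14502 genes for each member, and all 12 libraries enter every value, including the 3 of E14.

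The other regulators of the myogenic programme did not move as a group. Of 15 myogenic co-regulators 12 passed the filter. Of all genes tested edgeR called 25.4% higher and 24.6% lower at E14 against E9.5, and 31.5% and 29.2% at E14 against E8. At E14 against E9.5, 4 of the 12 rose and 4 fell, and at E14 against E8, 4 rose and 6 fell (edgeR). The medians of the 12 were 0.44 and -0.14, where the medians of all genes were 0.01 and 0.04. The median at E14 against E9.5 ran from -0.15 without E14 replicate 3 to 0.69 without E9.5 replicate 3, with 14 genes tested in both. Msc (musculin), a repressor of myogenic factors found in branchial muscle, rose to 1.03 ± 0.129 CPM at E14 against 0.0365 ± 0.0150 CPM at E9.5 (4.79 ± 0.48, edgeR adjusted p = 6.28e-06), although the antisense gene Gm9947 overlaps it with 1.45 times its count. Tcf21, a factor of head muscle and of epicardial cells, rose as well (2.14 ± 0.37). Six4 (-1.34 ± 0.12), which acts upstream of the myogenic factors, fell at E14 against E9.5, and Tbx1 of pharyngeal mesoderm fell at E14 against E8 (-3.96 ± 0.46). The highest edgeR adjusted p of Tcf21, Six4 and Tbx1 was 0.000572. Mymk (named Tmem8c in the table), which drives the fusion of myoblasts, had 7, 2 and 10 counts at E14. It had 2, 3 and 1 at E8 and 0 in each E9.5 library, where 3 counts set the floor. Mymx (named Gm7325), also of this list, had 2, 5 and 3 counts at E14 against 8, 6 and 5 at E9.5 and 25, 10 and 9 at E8.5. Neither passed the filter.

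Genes of the skeletal muscle contractile list also went both ways. Of 20 genes 19 passed the filter. Of all genes tested edgeR called 18.4% higher and 18.5% lower at E9.5 against E8.5, and the shares of the other comparisons are given above. At E9.5 against E8.5, 8 of the 19 rose and 0 fell by edgeR (median 0.73), 8 rose and 1 fell by DESeq2, and 11 had an unadjusted p under 0.05. Without E8.5 replicate 3, 9 rose and 0 fell by edgeR. At E14 against E9.5, 9 rose and 6 fell (median 0.51), and at E14 against E8, 10 rose and 6 fell (median 1.52, edgeR). At E8.5 against E8, 0 were called by edgeR, 2 had an unadjusted p under 0.05, and DESeq2 called 0 higher and 1 lower. Some intervals overlap other genes, whose reads cannot be told apart. Among the 6 that fell, Tnnc2 overlaps Ube2c, with 65.9 times its count, Atp2a1 overlaps Rabep2 (3.06 times) and Tnnt3 overlaps Prr33 (0.991). Among those that rose, Myh1 overlaps Gm12300 (0.535). Of the 20 genes 9 averaged at least 1 CPM already at E8, where Myog had 0 to 7 counts and Myod1 0 to 2. Tnnc2, Atp2a1 and Tnnt3 were among these 9.

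Of the 9 that rose at E14 against E9.5, the developmental myosins Myh8 and Myh3 rose most. Myh8, the perinatal heavy chain, had 503, 678 and 571 counts at E14 against 13, 2 and 6 at E9.5, and rose by 6.56 ± 0.43 on the log2 scale (edgeR adjusted p = 3.05e-07). Myh3, the embryonic heavy chain, had 254, 309 and 137 counts at E14 against 5, 10 and 7 at E9.5 (5.23 ± 0.47, edgeR adjusted p = 2.82e-06). For both, every E14 library lay above every library of the other stages. The adult fast chain Myh4 (4.66 ± 0.77) and Myh2 (3.41 ± 0.41) rose too, with at most 46 counts in any library. Klhl41, a sarcomere assembly protein of striated muscle, rose to 28.2 ± 1.77 CPM at E14 against 8.16 ± 1.96 CPM at E9.5 (1.79 ± 0.20).

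Other genes of the list fell at E14. Mylpf, the fast regulatory light chain, fell to 2.86 ± 0.422 CPM at E14 against 19.0 ± 0.903 CPM at E9.5 (-2.74 ± 0.14, edgeR). Cacna1s, the voltage sensor of skeletal muscle (-3.43 ± 0.24), and Ryr1, its calcium release channel (-1.01 ± 0.17), fell in the same comparison, with a highest edgeR adjusted p of 0.000455 for these 3. Chrna1, the alpha subunit of the acetylcholine receptor at the nerve-muscle junction, was at 6 to 18 counts in all libraries, with a value of -0.08 ± 0.46 at E14 against E9.5 (edgeR adjusted p = 0.902). Chrng, the gamma subunit of the fetal receptor, rose to 0.907 ± 0.168 CPM at E14 against 0.207 ± 0.0658 CPM at E8 (2.12 ± 0.39, edgeR adjusted p = 0.000523). Its rise against E9.5 (1.11 ± 0.38, edgeR adjusted p = 0.0279) was lost without E9.5 replicate 1 (0.0981) or 2 (0.0512), or E14 replicate 1 (0.0936) or 3 (0.0501).

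**Figure D3:**
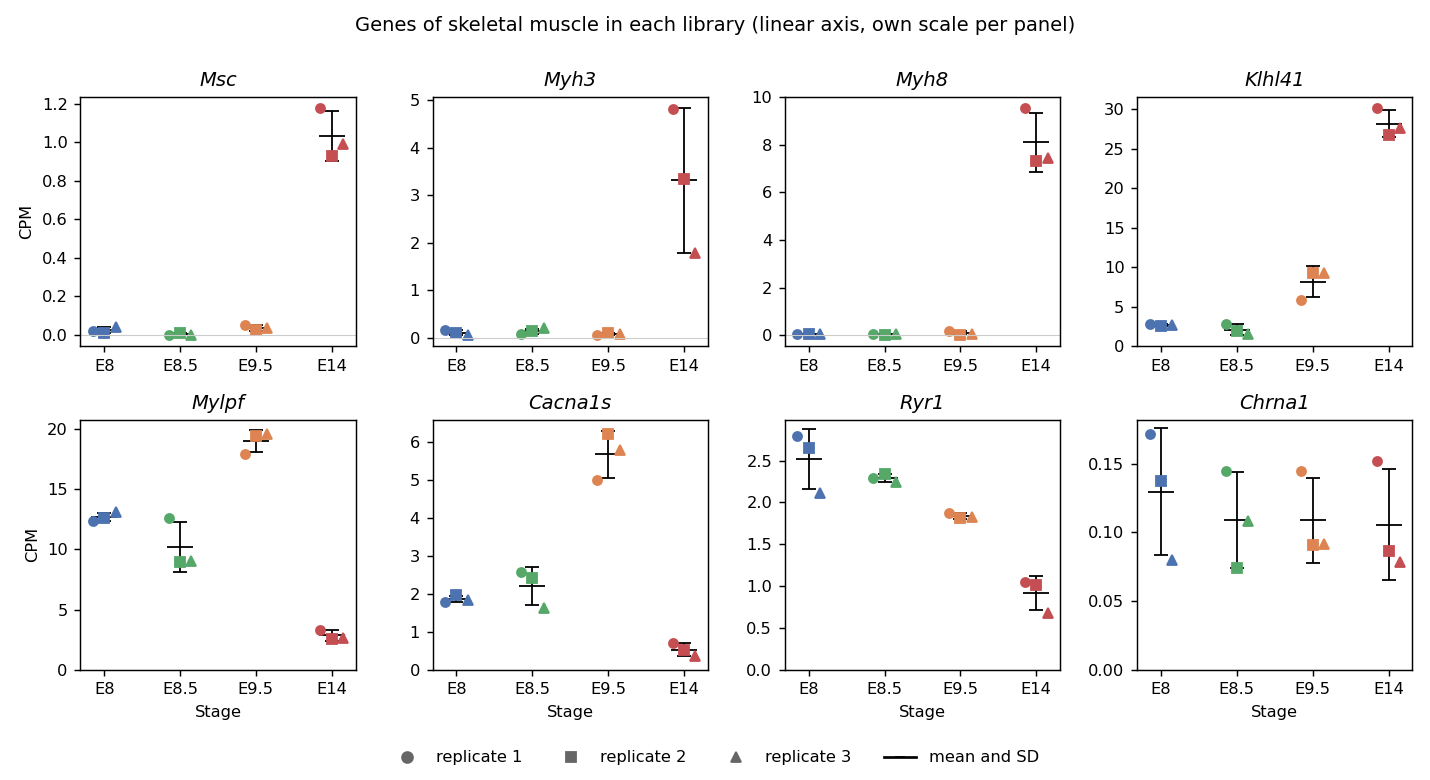
Level in CPM (y axis, linear, own scale per panel) against stage (x axis) for 8 genes linked to skeletal muscle, picked after their values were seen to show both directions. Points are libraries, and bars are mean and SD of 3. Msc, Myh3, Myh8 and Klhl41 are highest at E14, Mylpf, Cacna1s and Ryr1 lowest at E14, and Chrna1 overlaps across stages.

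Markers of other tissues were set beside the members. For the list counts that follow, edgeR called 18.4% of all genes tested higher and 18.5% lower at E9.5 against E8.5. The shares were 25.4% and 24.6% at E14 against E9.5, and 31.5% and 29.2% at E14 against E8. In RNA of whole tissue, fewer cells of a type and less RNA per cell cannot be told apart. Of 10 genes of presomitic mesoderm and somite 8 were tested, and at E14 against E8, 3 rose and 4 fell (edgeR, median -0.79). Those that rose were Ripply2 (4.44 ± 0.67), Tcf15 (3.84 ± 0.38) and Lfng (2.15 ± 0.33). Tcf15, a factor of somites that is also known from heart endothelium, had 124, 195 and 191 counts at E14 against 17, 11 and 15 at E9.5. The 4 that fell were Tbx6, Hes7, Dll3 and Ripply1. Tbx6 had 106, 119 and 110 counts at E8 against 18, 34 and 31 at E14, and Dll3 had 37, 36 and 36 against 3, 5 and 5. Msgn1, a gene of presomitic mesoderm, had 0 counts at E8 and E9.5 and at most 5 in any library. The somite gene Uncx had at most 2. The list summed to 2.88 to 3.35 CPM in E8 libraries, 2.12 to 2.96 in E8.5 libraries, 2.07 to 2.63 in E9.5 libraries and 6.42 to 6.61 in E14 libraries.

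Of the 6 genes of sclerotome and tendon 5 were tested. At E9.5 against E8.5, 2 rose and 2 fell, and at E14 against E8, 1 rose and 3 fell (edgeR). At E14 against E9.5 edgeR called 0 higher and 1 lower, DESeq2 0 and 2, and 2 had an unadjusted p under 0.05. Pax1, a gene of sclerotome and pharyngeal pouch, fell by 3.41 ± 0.54 on the log2 scale at E14 against E8. Pax9, of the same tissues, fell by 5.61 ± 0.46, though 189 bases of its interval overlap Slc25a21. Nkx3-2 had at most 6 counts in any library.

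Endothelial and mesenchymal genes rose with the Meox genes at E14. All 10 endothelial genes were called higher at E14 against E9.5 (edgeR, median 1.09), led by the fatty acid carrier Fabp4 (7.44 ± 0.56) and the receptor Robo4 (2.79 ± 0.19). The endothelial sum was 760 to 775 CPM at E14 and 378 to 413 CPM at E9.5. Of 10 genes of epicardium and fibroblast 6 rose and 0 fell in that comparison by edgeR (median 1.80), 7 and 0 by DESeq2, and 8 had an unadjusted p under 0.05. At E9.5 against E8.5, 8 of the 10 rose, and 9 without E8.5 replicate 3. The sum was 93.1 to 96.4 CPM in E8 libraries, 120 to 140 in E8.5 libraries, 252 to 469 in E9.5 libraries and 1934 to 2004 in E14 libraries. The part of these cell types in the rise of Meox1 and Meox2 was not tested.

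No neural tube gene tested was called higher at E14. Of 12 neural tube genes 6 were tested, and edgeR called 0 higher and 3 lower at E14 against E9.5, with 3 unadjusted p under 0.05, and DESeq2 also called 0 higher and 3 lower. Neurog1, Neurog2 and Olig2 of this list had at most 4 counts in any library. Others were present early, and 3 of the 12 averaged at least 1 CPM at E8. There Sox2 had 113, 159 and 206 counts and Pax6 had 247, 252 and 269. Both intervals overlap other genes, Sox2ot with 2.95 times the count of Sox2 and Pax6os1 with 114 times that of Pax6. The neural tube sum was 6.07 to 6.20 CPM in E8 libraries, 3.81 to 6.52 in E8.5 libraries, 5.16 to 11.2 in E9.5 libraries and 2.9995 to 3.41 in E14 libraries. Of 10 neural crest and glia genes 8 were tested, and 4 rose and 2 fell at E14 against E9.5 (edgeR). By DESeq2 3 rose and 2 fell. The rise of Sox10 was lost by DESeq2 (adjusted p = 0.113), with no filter (edgeR adjusted p = 0.108) and on leaving out any single E9.5 or E14 library. With E14 replicate 2 or 3, or E9.5 replicate 2 or 3, left out, 1 of the list fell. That list summed to 15.4 to 18.1 CPM at E14 and 10.001 to 16.4 at E9.5.

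Foregut endoderm genes fell: at E14 against E8 edgeR and DESeq2 each called 0 of 8 higher and 7 lower, and all 8 had an unadjusted p under 0.05. Of the 14 heart muscle genes 7 rose and 4 fell in that comparison. Of the 8 visceral endoderm genes 1, Trf, rose by edgeR, and DESeq2 called 1 higher and 1 lower. The call of Trf was lost with no filter (edgeR adjusted p = 0.0708) and on leaving out any single E8 or E14 library. Its interval overlaps Gm20425, with 3.74 times its count.

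Single markers of other tissues differed between the libraries that differed in Pax3, in both directions. At E8.5 replicate 3, with 0.723 CPM of Pax3, had 18 counts of the neural tube gene Sox1 beside 0 and 2 in replicates 1 and 2, and 27 counts of the somite gene Ripply1 beside 7 and 6. The somite gene Hes7 was lowest in it, at 0.524 CPM beside 0.714 and 0.721, and so was the crest gene Snai2, at 1.07 CPM beside 1.43 and 1.37. The list sums of presomitic mesoderm and somite (2.96 CPM beside 2.12 and 2.48) and of foregut endoderm (384 beside 178 and 197) were highest in replicate 3. So were those of epicardium and fibroblast (140 beside 120 and 125) and of neural crest and glia (14.7 beside 9.88 and 11.3). Without Erbb3 the crest sum was 5.48 beside 5.02 and 5.99. Sclerotome and tendon (11.8 beside 16.0 and 13.5) and heart muscle (12672 beside 14103 and 13940) were lowest there. The neural tube sum of replicate 3 was 6.52 CPM beside 3.81 and 5.14, but without Tubb3 the other 11 genes summed to 4.07 CPM beside 3.03 and 4.08. Its Meox1 level, at 0.787 CPM, lay close to the 0.731 and 0.758 CPM of the other E8.5 libraries. The markers named here were chosen after their values were seen.

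At E9.5 replicate 1 was lowest in Pax3, Meox1 and Myf5. Among the list sums it was also lowest in all but foregut endoderm and endothelium. Genes of presomitic mesoderm and somite summed to 2.07 CPM there, beside 2.53 and 2.63 in replicates 2 and 3. Sclerotome and tendon genes summed to 14.9 CPM beside 17.1 and 20.1. Neural crest and glia genes summed to 10.001 CPM beside 13.5 and 16.4, and without Erbb3 to 5.70 beside 5.90 and 7.92. The skeletal muscle contractile sum was 61.8 CPM beside 72.1 and 72.4. In replicate 1 the neural tube list summed to 5.16 CPM beside 10.9 and 11.2 in replicates 2 and 3, and without Tubb3 to 2.44 beside 2.79 and 2.82. The interval of Tubb3 overlaps that of Gm20388, a gene with far more counts. The visceral endoderm list summed to 10.9985 CPM in replicate 1 beside 79.6 and 140, and without Afp to 9.004 beside 18.2 and 27.7. The epicardium and fibroblast list was lowest in replicate 1 as well, at 252 CPM beside 336 and 469, and the crest factor Tfap2b had 8 counts there beside 44 and 107. Foregut endoderm genes were highest in replicate 1, at 139 CPM beside 105 and 109, as were endothelial genes, at 413 CPM beside 401 and 378. The heart muscle sum was 16032 CPM in replicate 1 beside 18034 and 16911. With 3 libraries per stage the part of these tissues in the spread of Pax3, Meox1 and Myf5 was not tested.

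**Figure D4:**
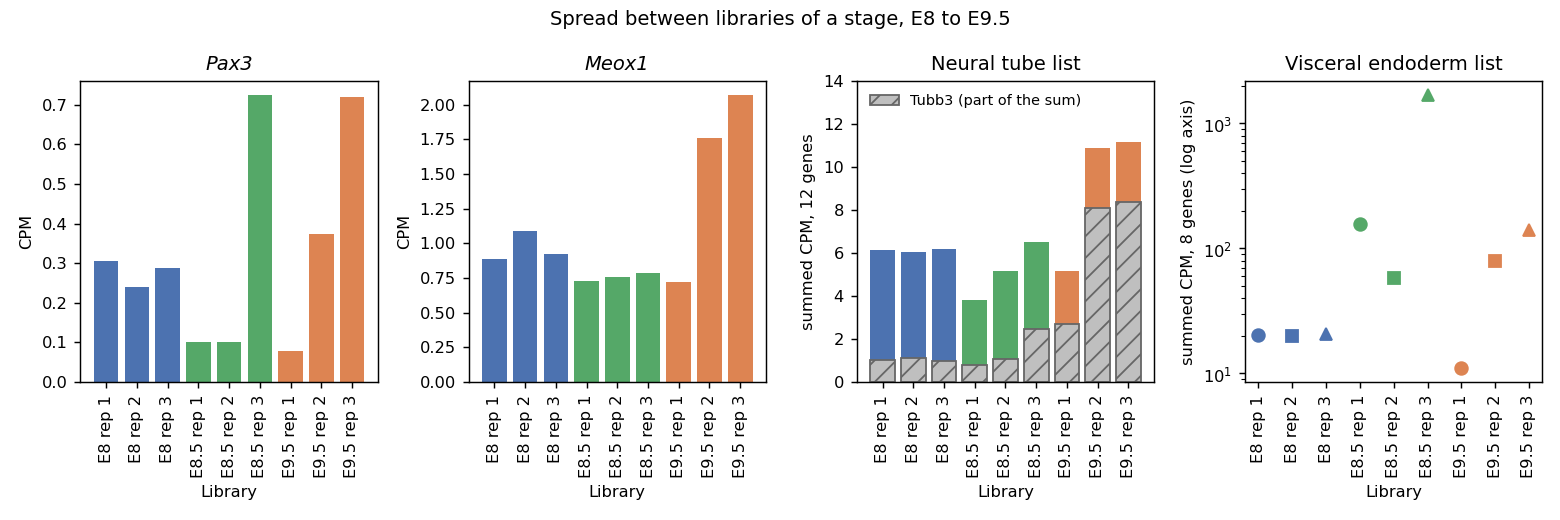
Level in each E8, E8.5 and E9.5 library (x axis) of Pax3 and Meox1 (bars, CPM), of the sum of 12 neural tube genes (bars, summed CPM, the share of Tubb3 hatched) and of the sum of 8 visceral endoderm genes (points, summed CPM, log axis). E8.5 replicate 3 is high in Pax3 and visceral endoderm but not in Meox1, and E9.5 replicate 1 is below replicates 2 and 3 in all 4 panels, with most of its neural tube gap in Tubb3.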

How the data were processed

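The authors deposited a table of whole-number read counts per gene interval and library, not normalised, with 48709 intervals per the file headers. The submitters' processing notes name STAR 2.5.0 and Cufflinks 2.2.1 and the builds GRCm38, mm10 and hg38, without roles. Which program counted the reads, and with which strand setting, is not given in the sources used here. Coordinates are those of the table. Exons and gene types came from GENCODE M21.

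The tests used edgeR 4.0.16 under R 4.3.3. Low counts were removed with filterByExpr, which kept 28846 genes, and TMM gave scaling factors of 0.913 to 1.07. The 12 libraries entered a single robust quasi-likelihood model, in which each stage had its own mean. A call needs a p, adjusted by Benjamini and Hochberg over these genes, below 0.05. Each SE is the log2 fold change over the square root of F. Replicates differed beyond counting noise (mean chi-square 8.41 to 201 per gene), and each counted as 1. DESeq2 1.42.0 and Python 3.11 (pandas 2.3.3, scipy 1.17.1, matplotlib 3.10.9) were also used.

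All 8 members were named. From each other list the called genes with the largest change came first, and names outside this rule were chosen after their values were seen. Some genes that the rule would name are not reported here. The members and lists were chosen with earlier results of these data known. Alternatives were RLE and upper-quartile factors, other filters, a replicate block, fits of the compared stages alone, DESeq2, an adjustment for gene span, small structural RNAs left out, and each library left out in turn. Same-numbered libraries did not deviate together (r from -0.0836 to 0.134), so the model has no block.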

Additional observations from a re-analysis of the deposited data

How the results depend on the processing

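The E14 rises of Myog, Meox1 and Meox2 against E9.5 and E8, and of Pax7 against E8, kept their direction and call in every alternative in which the gene was tested. Of 405 values of single members under alternatives, 389 kept direction and side of the threshold. The exceptions were 4 that lost a call, 4 that gained one and 8 that changed sign, and the cause was not tested.

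The 8 sign changes were all in uncalled values. Pax3 at E8.5 against E8 took -0.39 with the replicate block and -1.47 to 0.57 with a library left out, lowest without E8.5 replicate 3. Pax3 at E9.5 against E8.5 ran from -0.43 to 1.96 with a library left out, and was below 0 without E8.5 replicate 1 (-0.07), E8.5 replicate 2 (-0.06) or E9.5 replicate 3. Myog at E8.5 against E8 ran from -0.95 to 1.22, and was above 0 without E8 replicate 1 or E8.5 replicate 1 (0.05). Meox2 at E9.5 against E8.5 ran from -0.38 to 0.40, and was below 0 without E9.5 replicate 3.

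Members called higher at E9.5 against E8.5 numbered 0 with only the compared stages fitted and 0 to 2 with a library left out. At E14 against E9.5 0 to 1 were lower and 3 to 4 higher with a library left out. At E14 against E8 2 were higher with a filter of 1 CPM in 3 libraries, which removes Myog and Pax7, and 1, Pax3, was lower with only the compared stages fitted (-1.03, edgeR adjusted p = 0.0285). Over 4 stages 2 were called with the 1 CPM filter. With no filter 6 members were called at E14 against E8, now with Myod1 (edgeR adjusted p = 0.0370) and Myf5 (0.0336), and Myod1 at E14 against E9.5 stood at 0.0510. That fit covered 47041 genes, and its share of all genes called is not reported here.

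All genes called at E8.5 against E8 numbered 341, and 190 with no filter, 1564 with the 1 CPM filter, 3 with the replicate block, 9 with only the compared stages fitted, 4436 by DESeq2, 175 with the span adjustment, 592 without small structural RNAs and 0 to 8865 with a library left out. At E9.5 against E8.5 they numbered 10659, and 6099 with only the compared stages fitted and 7044 to 13015 with a library left out. Whether replicate numbers pair the libraries was not established, although same-numbered libraries did not deviate together. The replicate block moved no other count of calls by over 1.5 times. Few counts limit Myod1, Myf5 and Myf6, which were below the filter.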
